A study of Homo sapiens with 2 samples.

Results

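The genes described here encode the proteins that hepatocytes secrete into plasma: carriers, acute phase proteins, fibrinogen, clotting factors, their inhibitors and complement. They were chosen by name, as 59 listed genes, and not by their measured values, though earlier results of these data were known. Of these, 56 had at least 1 named probe, which gave 75 of the 29187 probes and 56 of the 18821 named genes on the array. A named probe is one with a single gene symbol in the annotation used here. GC, ORM1 and C3 have none and were not analysed here.

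The cells were Hep3B, an established human hepatocellular carcinoma line. One condition received an inhibitor of miR-19b (anti-miR-19b) and the other the control inhibitor, each at 90 pmol per well with a lipid transfection reagent, and RNA was collected 24 h later. RNA was hybridized to the Human OneArray mRNA array, and the series holds 1 deposited sample per condition and no replicate. Each deposited sample is called an array here, and the sources used do not state how many hybridizations it rests on. Both conditions share the line and the transfection, and a single line under 1 dose and 1 time limits what the samples stand for. The dye is Cy5 in the labels and fluorescein in the methods, and the extraction text in the labels describes liver tissue although the samples are named as the cell line.

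MicroRNAs of the miR-19 family are small RNAs that pair, through the seed near their 5′ end, with sites in mRNAs and lower their stability or translation. The mature strand is shown because it is the molecule that the inhibitor was directed against. The seed, bases 2 to 8, is in capitals, and the sequence is that of RefSeq (GRCh38.p14).
hsa-miR-19b-3p: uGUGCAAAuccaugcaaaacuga
The same mature sequence is annotated at chr13:91351245-91351267 on the plus strand and at chrX:134169683-134169705 on the minus strand. The sequences of the array probes and of the mRNAs' untranslated regions were not used here, so pairing of the seed with the plasma protein mRNAs was not examined.

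Hepatocytes make most of the soluble proteins of plasma. Clotting factors circulate as inactive precursors that are cut in sequence until thrombin turns fibrinogen into fibrin. Some serpins and A2M trap the proteases that drive this. Complement is a second cascade of plasma proteases, which marks and lyses foreign cells, and acute phase proteins are those whose output the liver raises in inflammation. Hepatoma lines keep parts of this programme, so the level of each gene on both arrays is given before the comparison.

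The deposited values are normalized intensities on a linear scale, 1 for each probe on each array. Over all probes the median was 28.1 with anti-miR-19b and 26.0 in the control, and 1650 probes with anti-miR-19b and 1898 in the control were at or below 0. A probe is called bright where the geometric mean of its 2 intensities reached 41.4, the median over the 26186 probes above 0 on both arrays, and dim otherwise. Of the hepatocyte and hepatoma markers, 7 of 8 had a named probe and 6 had a bright one, including AFP, the fetal plasma protein that hepatomas express, at 1783 with anti-miR-19b and 1371 in the control. KRT8, a keratin of hepatocytes, was dim (15.5 with anti-miR-19b and 21.1 in the control). Summed intensities of the hepatocyte markers were 39598 with anti-miR-19b and 38181 in the control, and those of 3 endothelial markers were 91.6 with anti-miR-19b and 100.4 in the control. The sums were 482 with anti-miR-19b and 568 in the control for 4 leukocyte markers, and 90.9 with anti-miR-19b and 95.7 in the control for 4 fibroblast and stellate markers. The sums cover 8, 3, 5 and 5 probes in the order given. Among the leukocyte markers CD68 and CD14 were bright and PTPRC, which defines leukocytes, was dim at both of its probes. The endothelial marker CDH5 (59.0 with anti-miR-19b and 60.9 in the control) was also bright. So was the fibroblast marker COL1A1 (56.6 with anti-miR-19b and 61.4 in the control).

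A large share of the plasma protein genes lay in the bright range in Hep3B. A bright probe was found for 40 of the 56 genes (71.4%), against 53.1% of all 18821 named genes. By probes, 48 of 75 (64.0%) were bright, against 47.8% of all probes with a named gene. With anti-miR-19b the bright probes lay between percentile 50.7 and percentile 99.7 of the array, and in the control between percentile 57.7 and percentile 99.7. Because the probes of different genes differ in affinity, each level is placed against its array and genes are not ranked by it.

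The 16 genes with dim probes alone were A1BG, CRP, SAA1, SAA2, SAA4, F9, F13B, PROZ, PLG, SERPINA7, ITIH3, ITIH4, C6, C8A, C8B and C9. They hold the measured genes listed as acute phase other than ORM2, and C6, C8A, C8B and C9, whose products form the pore of the membrane attack complex. C8G, the remaining chain of C8, was bright. PLG, the precursor of the fibrin-cutting protease plasmin, was dim at all 3 of its probes. At 4 dim probes, 1 each of SAA2, KNG1, PLG and ITIH4, the control array was at or below 0 while the anti-miR-19b array was above it, at 2.94, 3.94, 0.942 and 2.09 in that order. Such a probe has no log2 ratio and none is given.

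**Figure D1:**
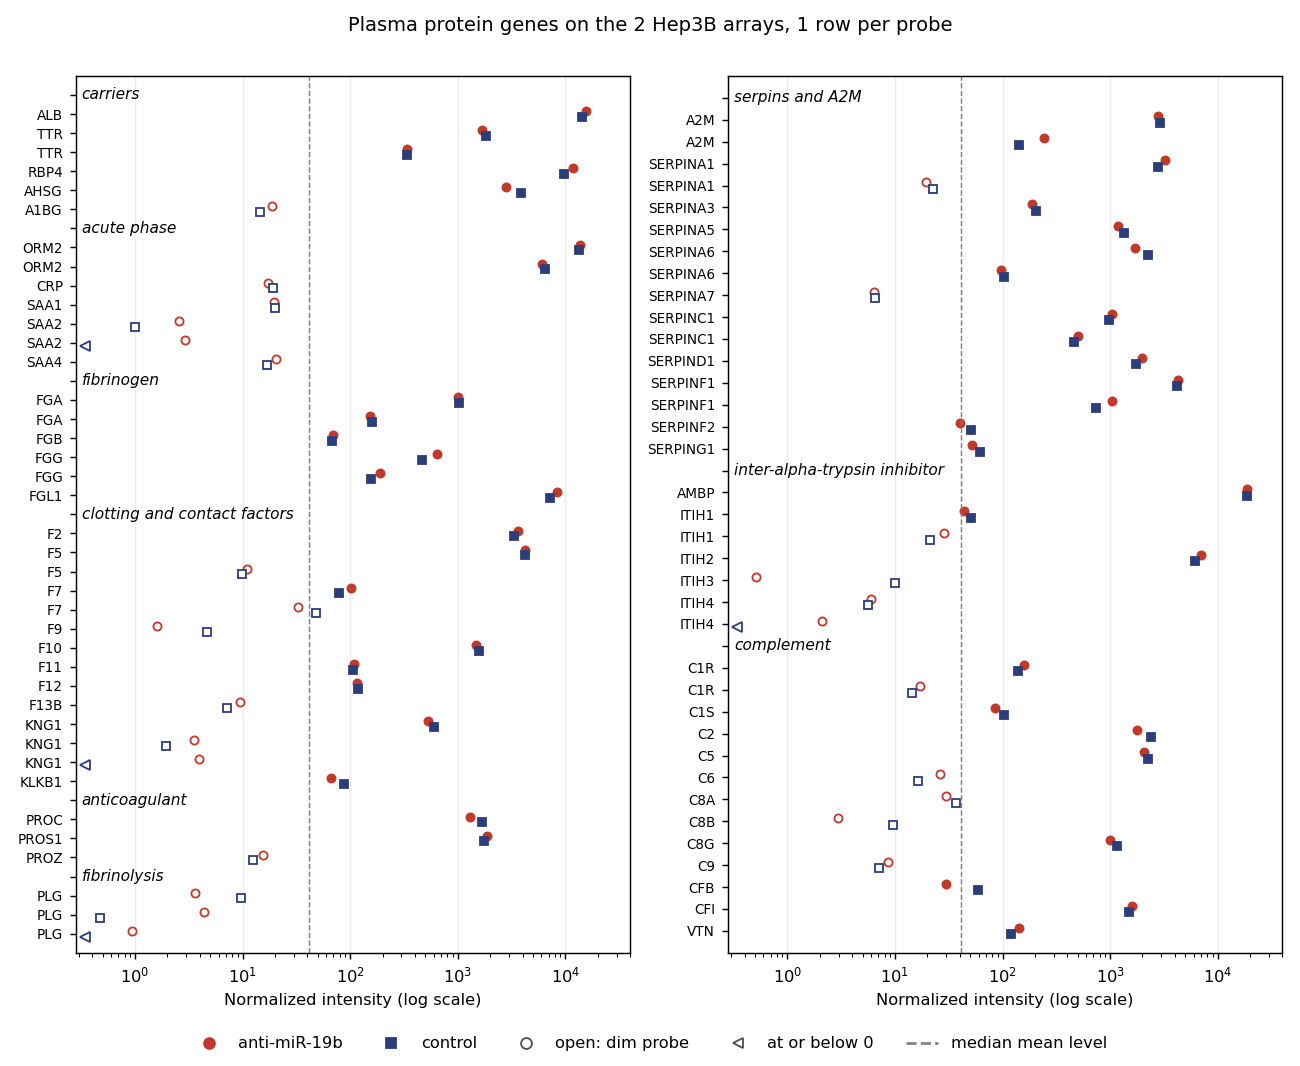
Normalized intensity of every probe of the 56 plasma protein genes on a log axis, 1 row per probe, grouped by role. Red circles are the anti-miR-19b array, blue squares the control array, open symbols dim probes, triangles control values at or below 0, and the dashed line the median mean level of 41.4; most bright probes show both symbols close together, and the widest gaps are at dim probes.

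Within gene families the probes did not share one level. Probes of one gene can also differ widely, with mean levels of 4222 and 10.4 at F5, so a dim probe need not mean little mRNA. The complement component C8 is built of 3 chains, and C8G was bright (991 with anti-miR-19b and 1152 in the control) while the probes of C8A (29.6 with anti-miR-19b and 36.7 in the control) and C8B (2.94 with anti-miR-19b and 9.64 in the control) were dim. The inter-alpha-trypsin inhibitors join a light chain, cut from the AMBP precursor, to heavy chains encoded by ITIH genes. AMBP, ITIH1 and ITIH2 each had a bright probe, whereas ITIH3 and ITIH4 had none. The fibrinogen genes FGA, FGB and FGG were bright at each of their probes. Among the 25 pairs of these genes within 1 Mb of each other (30 genes), both genes had a bright probe in 16 pairs, neither in 5, and 1 of them in 4. The 5 dim pairs were those among SAA1, SAA2 and SAA4, the pair ITIH3 and ITIH4, and the pair C8A and C8B. The 4 mixed pairs were PROZ with F7 and with F10, and ITIH1 with ITIH3 and with ITIH4.

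The promoters were searched for letters known from liver genes. C/EBP proteins are transcription factors of hepatocytes that bind promoters of plasma protein genes, and the TATA box helps to place the start of transcription. RefSeq sequences (GRCh38.p14) of the 250 bases before the annotated start were matched for 43 of the 56 genes and, for comparison, for 27305 promoters in all. The C/EBP pattern TTGCNNAA, on either strand, was present in 11 of 43 (25.6%), against 9.13% of all promoters. The TATA box TATAAA, on the gene's strand, was present in 4 of 43 (9.30%), against 7.17% of all, 1 of 29 genes with a bright probe (3.45%) and 3 of 14 without one (21.4%). No matches of the different patterns overlapped in the 43 promoters. The C/EBP pattern was present in 8 of 29 genes with a bright probe (27.6%) and in 3 of 14 genes without one (21.4%). A match is only a run of letters, and binding was not measured.

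The 11 genes with the C/EBP pattern were AHSG, ALB, C1R, C6, FGA, FGB, KLKB1, KNG1, SAA4, SERPINA7 and VTN. The promoters of ALB and FGB are shown as those of bright genes with 1 match, and those of SAA4 and VTN because they alone held more than 1, which 0.732% of all promoters did. They are written 5′ to 3′ on the gene's strand and end at the last base before the start, with each match, on either strand, in capitals.
ALB, chr4:73404037-73404286, plus strand: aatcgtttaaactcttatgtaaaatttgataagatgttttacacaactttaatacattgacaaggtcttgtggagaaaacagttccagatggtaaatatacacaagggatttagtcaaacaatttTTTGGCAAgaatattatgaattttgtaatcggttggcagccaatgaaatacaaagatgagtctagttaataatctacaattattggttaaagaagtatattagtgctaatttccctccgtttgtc
FGB, chr4:154562730-154562979, plus strand: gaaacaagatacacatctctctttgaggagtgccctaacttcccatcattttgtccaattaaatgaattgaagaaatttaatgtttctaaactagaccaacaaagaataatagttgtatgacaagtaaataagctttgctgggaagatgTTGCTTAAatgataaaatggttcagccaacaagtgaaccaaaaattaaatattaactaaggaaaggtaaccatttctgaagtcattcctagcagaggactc
SAA4, chr11:18236803-18237052, minus strand: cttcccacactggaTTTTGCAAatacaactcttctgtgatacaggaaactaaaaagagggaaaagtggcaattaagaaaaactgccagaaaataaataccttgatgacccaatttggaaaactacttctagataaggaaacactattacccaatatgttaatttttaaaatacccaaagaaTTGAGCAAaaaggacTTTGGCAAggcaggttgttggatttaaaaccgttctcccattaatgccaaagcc
VTN, chr17:28370308-28370557, minus strand: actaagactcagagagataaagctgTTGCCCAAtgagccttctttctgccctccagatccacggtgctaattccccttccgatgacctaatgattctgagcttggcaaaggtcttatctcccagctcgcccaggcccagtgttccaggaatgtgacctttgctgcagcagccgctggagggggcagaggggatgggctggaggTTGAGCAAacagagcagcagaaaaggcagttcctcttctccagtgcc
The match of ALB begins 125 bases before the start and that of FGB 101 bases before it. SAA4 has 3, at 236, 69 and 54 bases, and VTN has 2, at 225 and 47 bases. SAA4 encodes a serum amyloid A protein and was dim, and VTN encodes vitronectin and was bright.

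The comparison asks which plasma protein mRNAs differed with anti-miR-19b, whose effect on miR-19b itself was not measured here. Most did not pass 1.5-fold, the change over which the paper selected its candidate genes. The supplement also gives a p-value for each gene it lists as lower. For some of these, such as GNAI2, its listed log2 ratio also differs from that of its printed intensities. The counts below use the fold change of the deposited intensities alone, so they are not on quite the same measure. Of the 56 genes, by the mean log2 ratio over their probes (anti-miR-19b over control), 3 were over 1.5-fold higher (SAA2, PLG and C6, 5.36%), against 12.4% of all 17438 genes compared. Over 1.5-fold lower were 4 (F9, ITIH3, C8B and CFB, 7.14%), against 10.8% of all genes, and 49 lay within. The median log2 ratio of the 56 genes was 0.01, against 0.03 over all genes, with 28 genes above 0 and 28 below. Of the 7 genes past the threshold, all but CFB rest on dim probes alone. At a bulk level, a lower share of expressing cells and less RNA per cell cannot be told apart.

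No error can be computed from 1 array per condition, and no test or p-value is given. The spread of the log2 ratio over probes of like level is given as a yardstick. It runs over probes of different genes, so it is not the error of any gene. The spread was taken as the distance from percentile 16 to percentile 84, divided by 2. It was 0.87 over all dim probes and 0.26 over all bright probes, and among the plasma protein probes it was 0.77 at dim ones and 0.23 at bright ones. Each probe was also ranked among 500 probes of like level, those closest by mean intensity. The dim members are therefore given mainly as levels.

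The bright probes give the narrower view. Of the 48, 1 was over 1.5-fold higher with anti-miR-19b (A2M), against 2.41% of all 13093 bright probes. Likewise 1 was over 1.5-fold lower (CFB), against 1.05% of all bright probes, and the other 46 lay within. The log2 ratios ran between -0.98 and 0.76, with 23 above 0 and 25 below. By genes, the median of the 40 with a bright probe was -0.02, against 0.02 over all genes with a bright probe, and 45.0% were above 0, against 53.6% of all. Of the 48 probes, 33 lay between percentile 16 and percentile 84 of the probes of like level, 9 below and 6 above. These values lie close to those of bright probes in general.

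**Figure D2:**
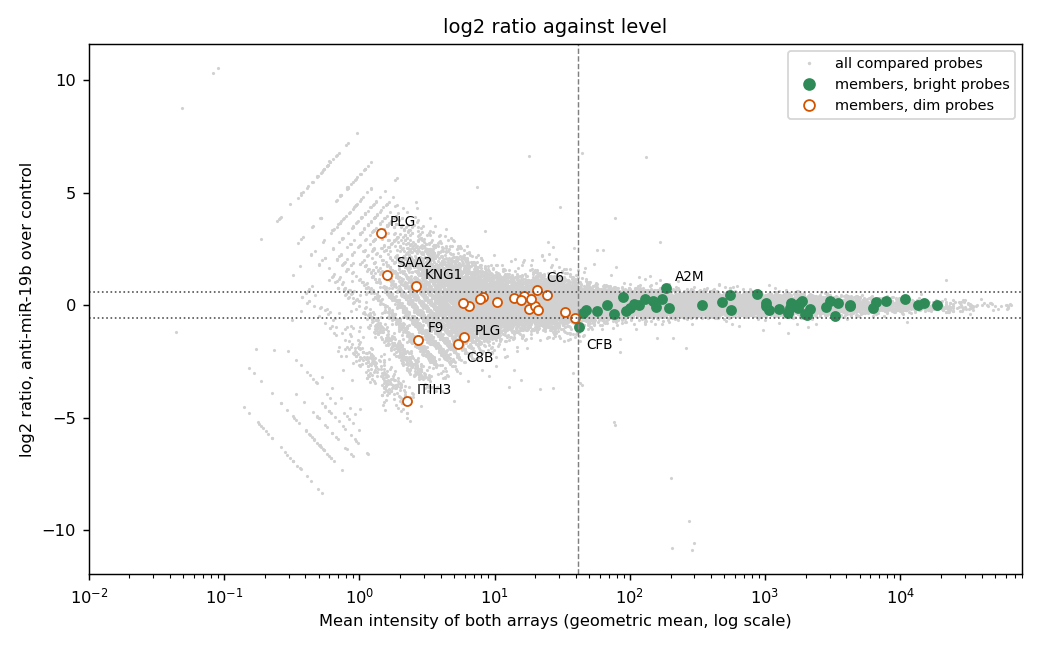
Log2 ratio (anti-miR-19b over control) against the geometric mean intensity (log axis) of all 26186 compared probes (grey), with bright (filled) and dim (open) probes of the plasma protein genes. Dotted lines mark 1.5-fold and the dashed line the level of 41.4; the ratios fan out to the left of it, and right of it A2M and CFB are the members past 1.5-fold.

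The carriers were bright apart from A1BG, and none passed 1.5-fold. ALB, the main carrier and osmotic protein of plasma, read 15550 with anti-miR-19b and 14382 in the control (log2 ratio 0.11). RBP4, which carries retinol in a complex with TTR, read 11899 with anti-miR-19b and 9735 in the control, a log2 ratio of 0.29 at percentile 95.8 of probes of like level. TTR itself, also a carrier of thyroxine, did not share that direction: its probes read 1669 and 341 with anti-miR-19b and 1834 and 341 in the control, with log2 ratios of -0.14 and 0.00. AHSG, the fetuin that binds calcium phosphate in plasma, was the lowest of the group, at 2811 with anti-miR-19b and 3870 in the control. Its log2 ratio of -0.46 lay at percentile 1 of the probes of like level, though under 1.5-fold. A1BG, a plasma glycoprotein, was dim (19.0 with anti-miR-19b and 14.4 in the control, 0.40).

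Acute phase proteins also stand in other groups here, such as fibrinogen and the serpins. SAA4 was listed with its gene family, the serum amyloid A genes, and no response of any gene to inflammation was measured. Of the measured genes listed as acute phase (ORM2, CRP, SAA1, SAA2 and SAA4), ORM2 alone was bright. It encodes an alpha-1-acid glycoprotein that binds drugs, and its probes read 13686 and 6018 with anti-miR-19b and 13495 and 6519 in the control (log2 ratios 0.02 and -0.12). ORM1 and ORM2 are near-identical, and the files do not show whether these probes tell them apart. CRP, which binds phosphocholine on microbes and dying cells, read 17.1 with anti-miR-19b and 19.1 in the control. Of the serum amyloid A genes, whose products travel on high density lipoprotein, SAA1 read 19.5 with anti-miR-19b and 20.0 in the control, and SAA4 read 20.5 with anti-miR-19b and 16.7 in the control. SAA2 passed 1.5-fold on a probe with 2.58 with anti-miR-19b and 1.0 in the control, a log2 ratio of 1.36 where probes of like level had a spread of 2.68. The 2 arrays differed little at the bright acute phase probes, and the dim ones were below the bright limit on both.

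Fibrinogen is a pair of triplets of the FGA, FGB and FGG chains. The FGG probes were the higher ones: they read 642 and 190 with anti-miR-19b and 467 and 155 in the control. Their log2 ratios of 0.46 and 0.29 lay at percentiles 95 and 83 of probes of like level. FGA and FGB, which neighbour FGG on the chromosome, had log2 ratios near 0. The FGA probes read 1010 and 153 with anti-miR-19b and 1021 and 160 in the control (-0.02 and -0.07), and FGB read 68.6 with anti-miR-19b and 67.2 in the control (0.03). FGL1, a fibrinogen-like protein secreted by hepatocytes, read 8364 with anti-miR-19b and 7244 in the control (0.21). None of the 4 genes passed 1.5-fold, and their median was 0.12.

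Of the 10 clotting and contact factors, 8 had a bright probe, with a median log2 ratio of -0.01. F2, the precursor of thrombin, read 3601 with anti-miR-19b and 3349 in the control (0.10). F5, the cofactor that speeds the cutting of prothrombin by F10, read 4190 with anti-miR-19b and 4255 in the control at its bright probe (-0.02) and 11.01 with anti-miR-19b and 9.91 in the control at its dim one (0.15). F10, the protease that cuts prothrombin, read 1483 with anti-miR-19b and 1593 in the control (-0.10). At the bright probes of F2, F5 and F10 the differences were smaller than the spread of probes of like level.

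F7, which starts clotting together with tissue factor, gave opposite signs at its probes. The bright one read 103 with anti-miR-19b and 78.5 in the control (0.39, percentile 89.4), and the dim one read 32.5 with anti-miR-19b and 48.3 in the control (-0.57, percentile 6.8). No direction is therefore given for F7. Of the factors of the contact pathway, which starts clotting on surfaces, F11 read 110 with anti-miR-19b and 107 in the control, and F12, the first of that pathway, read 117 on both arrays. KLKB1, the precursor of plasma kallikrein, read 66.6 with anti-miR-19b and 86.7 in the control (-0.38, percentile 6.4). KNG1, the kininogen that kallikrein cuts to release bradykinin, read 527 with anti-miR-19b and 602 in the control at its bright probe (-0.19) and 3.52 with anti-miR-19b and 1.94 in the control at the dim probe that could be compared (0.86). F9, the factor missing in haemophilia B, was dim at 1.60 with anti-miR-19b and 4.62 in the control, a log2 ratio of -1.53 where probes of like level had a spread of 1.72. F13B, the carrier subunit of the fibrin-linking factor XIII, was dim at 9.43 with anti-miR-19b and 7.23 in the control.

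The anticoagulant proteins split. PROC, the protease that inactivates activated F5, read 1304 with anti-miR-19b and 1667 in the control, a log2 ratio of -0.35 at percentile 2.8. PROS1, its cofactor, read 1860 with anti-miR-19b and 1761 in the control (0.08). PROZ, the cofactor of an inhibitor of activated F10, was dim at 15.5 with anti-miR-19b and 12.4 in the control. Neither bright gene passed 1.5-fold. The fibrinolysis gene PLG had comparable values at 2 dim probes of opposite sign: 3.63 with anti-miR-19b and 9.58 in the control at one (-1.40), and 4.40 with anti-miR-19b and 0.471 in the control at the other (3.22). Its place among the genes over 1.5-fold higher comes from averaging these, and no direction is given.

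The group of serpins and A2M was bright in 10 of 11 genes, with a median log2 ratio of -0.0048 over those. A2M, a large inhibitor that traps proteases of every class, read 241 with anti-miR-19b and 143 in the control at one probe, 1.69-fold higher (log2 ratio 0.76, percentile 99.2). At its other and brighter probe it read 2765 with anti-miR-19b and 2893 in the control (-0.07, percentile 39.4). The study selected A2M from these same arrays for exceeding 1.5-fold, so the first value is not independent evidence. Over both probes A2M stayed within 1.5-fold.

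SERPINF1, the antiangiogenic factor PEDF, showed the same kind of split. It read 1035 with anti-miR-19b and 738 in the control at one probe (0.49, percentile 98.6), and 4236 with anti-miR-19b and 4220 in the control at the brighter one (0.01). SERPINA6, corticosteroid-binding globulin, was lower at both probes, which read 1720 and 96.6 with anti-miR-19b and 2235 and 104 in the control (-0.38 and -0.11, percentiles 4 and 27.4). SERPINC1, the antithrombin that inhibits thrombin and F10, was the most even of the group, at 1048 and 502 with anti-miR-19b and 979 and 461 in the control (0.10 and 0.12). SERPINA7, thyroxine-binding globulin, was dim at 6.37 with anti-miR-19b and 6.50 in the control. The others with a bright probe ran between -0.33 and 0.21. SERPINA1, the inhibitor of neutrophil elastase, read 3236 with anti-miR-19b and 2805 in the control (0.21), with a dim probe at 19.5 with anti-miR-19b and 22.8 in the control. SERPIND1, heparin cofactor II, read 1997 with anti-miR-19b and 1734 in the control (0.20). The lower ones were SERPINA5, which inhibits activated protein C (1190 with anti-miR-19b and 1332 in the control, -0.16), and SERPINA3, which inhibits chymotrypsin-like proteases (187 with anti-miR-19b and 203 in the control, -0.12). SERPINF2, the plasmin inhibitor, read 40.3 with anti-miR-19b and 50.5 in the control (-0.33), and SERPING1, which inhibits C1R and C1S, read 52.1 with anti-miR-19b and 62.0 in the control (-0.25). Both lie just inside the bright range, where ratios are wider.

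In the inter-alpha-trypsin group AMBP read 18589 with anti-miR-19b and 18727 in the control (-0.01), the smallest difference of that group. ITIH2 read 6939 with anti-miR-19b and 6209 in the control (0.16). ITIH1 read 43.7 with anti-miR-19b and 51.2 in the control at its bright probe (-0.23) and 28.7 with anti-miR-19b and 21.0 in the control at its dim one (0.45), again of opposite sign. ITIH3 was at 0.515 with anti-miR-19b and 9.98 in the control, and its log2 ratio of -4.28 comes from values near 0, where probes of like level had a spread of 2.14. ITIH4 was dim at 6.03 with anti-miR-19b and 5.63 in the control.

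Complement had the lowest median of the larger groups, -0.18 over its 8 genes with a bright probe, 5 below 0 and 3 above. C2 and CFB are the matching proteases of the classical and the alternative C3 convertase. Both had log2 ratios below 0, and CFB alone passed 1.5-fold. C2 read 1761 with anti-miR-19b and 2390 in the control, a log2 ratio of -0.44 at percentile 2.2, within 1.5-fold. CFB read 29.9 with anti-miR-19b and 58.9 in the control, 1.97-fold lower (-0.98, percentile 1.8). Its mean level of 42.0 is only just above the limit for bright probes, and probes of like level had a spread of 0.46. After 50 was added to each intensity, its log2 ratio was -0.45, within 1.5-fold. C3, which both convertases cut, was not analysed here.

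Of the 8 complement genes with a bright probe, the 7 other than CFB lay within 1.5-fold there. C1R and C1S, the protease pair of the first component, gave opposite signs: C1R read 159 with anti-miR-19b and 140 in the control (0.18), with a dim probe at 17.1 with anti-miR-19b and 14.5 in the control (0.24), and C1S read 85.8 with anti-miR-19b and 103 in the control (-0.26). C5, which starts the membrane attack complex when cut, read 2054 with anti-miR-19b and 2273 in the control (-0.15), and C8G, read above, had a log2 ratio of -0.22. CFI and VTN had log2 ratios above 0. CFI, which inactivates C3b and C4b, read 1607 with anti-miR-19b and 1504 in the control (0.09), and VTN, which blocks insertion of the attack complex, read 142 with anti-miR-19b and 119 in the control (0.25). Of the dim genes of the attack complex, C6 read 26.4 with anti-miR-19b and 16.3 in the control (0.69, percentile 86.6) and C9 read 8.58 with anti-miR-19b and 7.17 in the control (0.26). C8A and C8B had log2 ratios of -0.31 and -1.71.

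**Figure D3:**
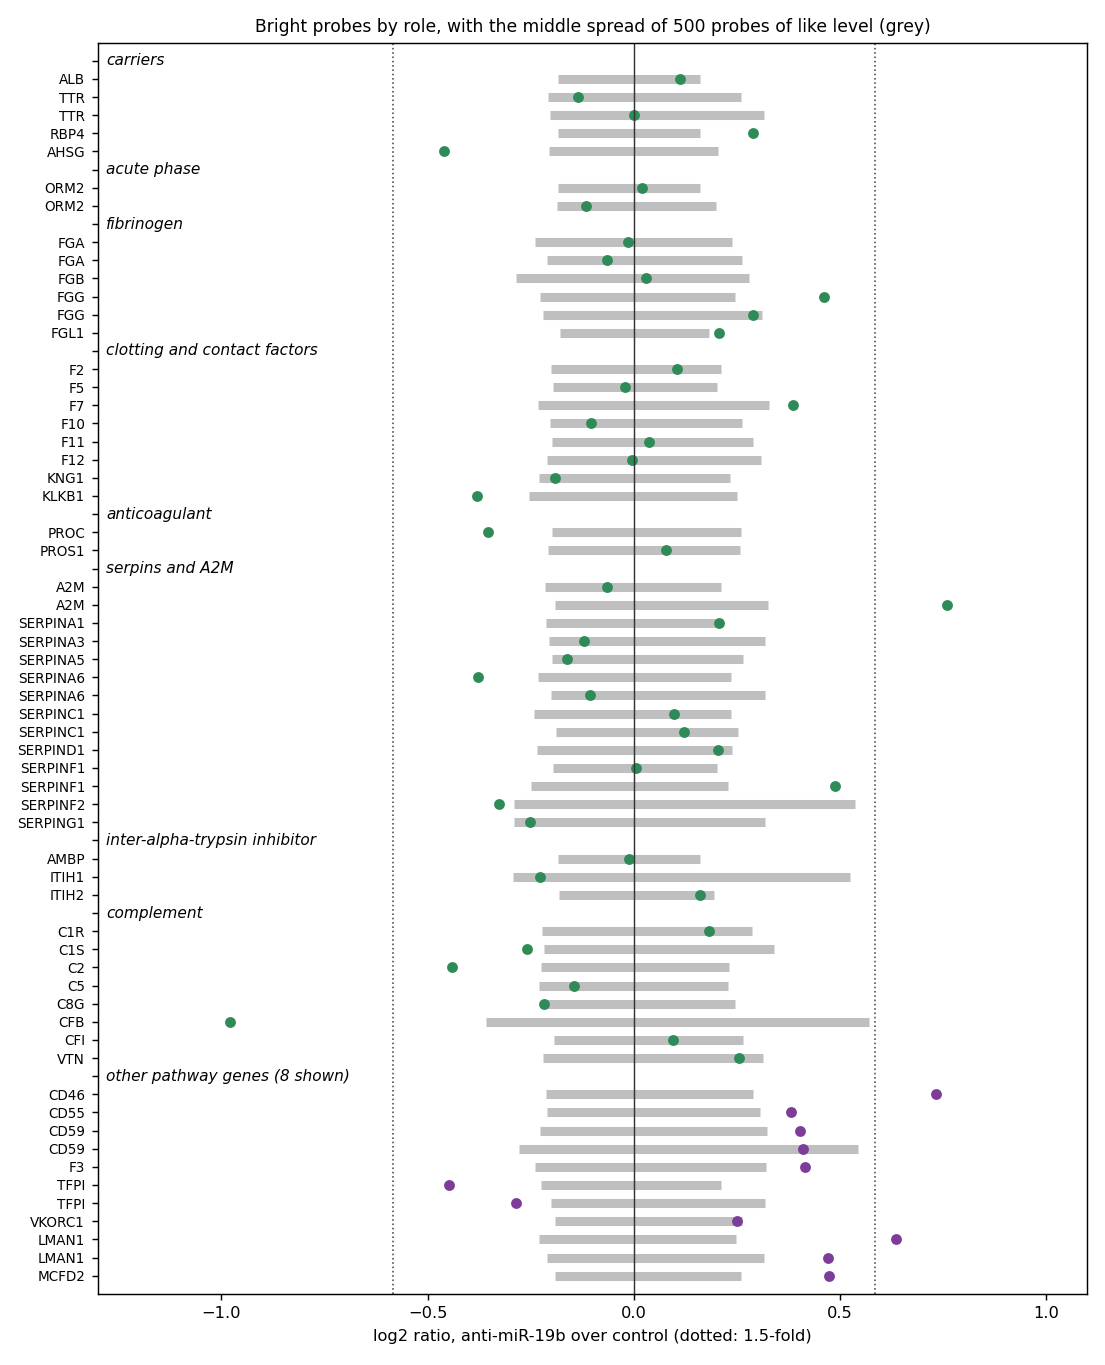
Log2 ratio (anti-miR-19b over control) of each bright plasma protein probe by role, with 8 related genes that are no members at the bottom in purple. Each grey bar is the median of the 500 probes of like level plus and minus their spread, dotted lines mark 1.5-fold, and of the members A2M at 0.76 and CFB at -0.98 lie beyond them.

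Genes with more than 1 bright probe give a measure of how closely ratios within one pair of arrays repeat. There were 8 such plasma protein genes, each with exactly 2, and the probes of a gene differed in log2 ratio by a median of 0.15, against 0.24 over all 1629 genes with 2 bright probes. Percentile 84 over all genes was 0.49. SERPINC1 (0.02), FGA (0.05), ORM2 (0.14), TTR (0.14), FGG (0.17) and SERPINA6 (0.27) lay below that limit, as did SERPINF1 (0.48). A2M, with a difference of 0.82, lay above it. The medians of 0.15 and 0.24 were not matched for level, and 8 genes are few. Probes of like level had a spread of 0.17 at the brighter ORM2 probe and 0.46 at CFB. Both probes were above 0 in FGG, SERPINC1 and SERPINF1 and both below 0 in FGA and SERPINA6, and the signs differed in A2M, ORM2 and TTR. The files give no probe sequences, so which transcripts each probe reads was not examined.

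**Figure D4:**
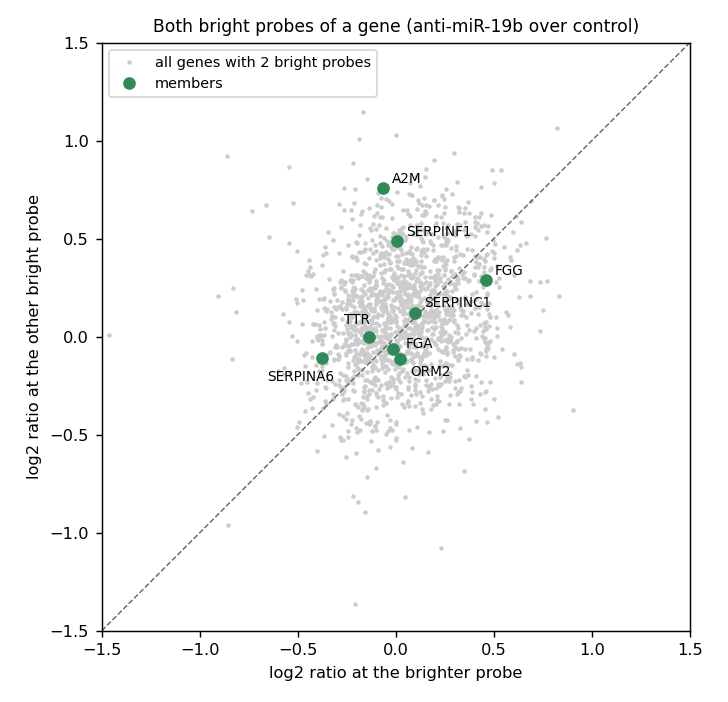
Log2 ratio (anti-miR-19b over control) at the brighter probe and at the other probe of each gene with 2 bright probes, with 8 plasma protein genes in green and 1625 of 1629 genes shown (4 lie outside the axes). The dashed line marks equal ratios; SERPINC1 and FGA lie near it, and A2M and SERPINF1 lie above it with the brighter probe near 0.

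A wider list of 60 coagulation, complement and plasma protein genes that are no members was read the same way. Of these, 50 had a named probe and 45 could be compared, of which 7 (15.6%) were over 1.5-fold higher and 4 (8.89%) over 1.5-fold lower, against 12.4% and 10.8% of all genes. Their median log2 ratio was 0.05. Of 38 bright probes, 3 were over 1.5-fold higher (CD46, LMAN1 and MBL2), 1 lower (FCN3) and 34 within. Over all 13093 bright probes the shares were 2.41% higher and 1.05% lower. The MBL2 probe, at a mean level of 42.4, is only just above the bright limit, and the dim probe of FCN3 had the opposite sign (0.58). The genes named next were chosen after their values had been seen, for their part in the secretion or control of the members.

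LMAN1 and MCFD2 form the receptor that carries F5 and F8 out of the endoplasmic reticulum, and their probes were higher. LMAN1 read 748 and 228 with anti-miR-19b and 481 and 165 in the control (0.64 and 0.47, percentiles 99.2 and 93.6). MCFD2 read 1594 with anti-miR-19b and 1149 in the control (0.47, percentile 97.8). Their cargo F5 read almost the same on both arrays at its bright probe. Of the membrane proteins that protect cells from complement, CD46, CD55 and CD59 were also on the higher side. CD46, the cofactor with which CFI cuts C3b, read 141 with anti-miR-19b and 84.8 in the control (0.73, percentile 99). CD55, which breaks up C3 convertases, read 133 with anti-miR-19b and 102 in the control (0.38), and CD59, which stops the attack complex, read 101 and 53.0 with anti-miR-19b and 76.5 and 39.9 in the control (0.40 and 0.41). CR1, a receptor that likewise limits convertases, read 74.7 with anti-miR-19b and 82.8 in the control (-0.15). The study selected LMAN1 and CD46 from these same arrays for exceeding 1.5-fold.

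The start of clotting had values on both sides. F3, the tissue factor that binds F7, read 106 with anti-miR-19b and 79.6 in the control (0.42, percentile 91.2). TFPI, which inhibits the complex of tissue factor and F7, read 798 and 90.7 with anti-miR-19b and 1088 and 111 in the control (-0.45 and -0.29, percentiles 2.2 and 9.2). VKORC1, which recycles the vitamin K that F2, F7, F9, F10, PROC, PROS1 and PROZ need, read 1439 with anti-miR-19b and 1209 in the control (0.25). Apart from one LMAN1 probe and CD46, each of these ratios was under 1.5-fold.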

How the data were processed

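RNA of Hep3B cells given anti-miR-19b or the control inhibitor was measured on mRNA arrays, with 1 deposited sample each. The authors labelled the RNA with 1 dye, hybridized and scanned it, and deposited normalized intensity values, 1 for each probe on each array, on a linear scale, some of them below 0, by a normalization not given in the sources used here.

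Annotation of the platform gives 1 gene symbol to 25053 of the 29187 probes. The other 4134, with no symbol or with more than 1, were left unnamed. Current symbols came from a RefSeq table (GRCh38.p14), which held the gene identifiers of 24981 probes. The log2 ratio was computed from the deposited intensities as anti-miR-19b minus control for probes above 0 on both arrays, and averaged over the probes of a gene. Each probe was ranked among 500 probes of like level. No test was run, since each condition has 1 array, and the number of arrays limits the precision.

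The members, lists and alternatives were chosen with earlier results of these data known. Named in full were members with a bright probe over 1.5-fold, those with several probes, the first of each role and the dim ones by name. The other members are given with values too. The alternatives were median centring, quantile normalization, loess (fraction 0.3), bright probes alone, an offset of 50, the brightest probe and a 2-fold threshold. The steps were tested on simulated data. Tables were handled in Python 3.11.15 (pandas 2.3.3, numpy 2.4.6), loess used statsmodels 0.14.6, and figures were drawn with matplotlib 3.10.9.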

Additional observations from a re-analysis of the deposited data

How the results depend on the processing

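The count of plasma protein genes past 1.5-fold depended on the dim probes. With bright probes alone, 0 genes were higher and 1 lower (CFB), and after 50 was added to each intensity (the offset), 0 were higher and 0 lower, against 3 and 4 as reported. A 2-fold threshold left 1 higher (SAA2) and 3 lower, against 6.11% and 6.08% of all genes. Over all genes, the share past 1.5-fold fell in the same way, to 1.73% higher and 0.941% lower with bright probes alone and to 0.213% and 0.149% with the offset. Median centring, quantile normalization and loess each kept the same 7 genes. The brightest probe of each gene gave 2 higher and 5 lower, against 11.4% and 10.2% of all genes. PLG changed sign, with a log2 ratio of -0.0055 under the offset and -1.40 at its brightest probe, against 0.91 as the mean of 2 probes. The median of 0.01 lay between -0.016 and -0.0024 under the 6 alternatives, so its sign is not set by these data. A2M read -0.07 at its brightest probe, against 0.35 as a mean. No paired analysis was possible because there was a single array for each condition, and none could be left out. Low signal, 1 array per condition and the unstated normalization limit every value.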

Other observations

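Regulators of the plasma protein genes lay within 1.5-fold as means over their probes. Of 13 listed, 10 had a named probe, and of the 9 that could be compared 0 were over 1.5-fold either way, against 12.4% of all genes higher and 10.8% lower, with a median log2 ratio of 0.10. FOXA2 and CEBPA, transcription factors of hepatocytes, read 4293 and 10526 with anti-miR-19b and 4435 and 9694 in the control. FOXA3, another member of the FOXA family, read 1670 with anti-miR-19b and 2142 in the control (-0.36), and STAT3, which carries the interleukin 6 signal that drives acute phase genes, read 1529 with anti-miR-19b and 1527 in the control at its brighter probe. IL6R, the receptor for interleukin 6, read 133 with anti-miR-19b and 103 in the control (0.37), while its signalling partner IL6ST was at -1.55 with anti-miR-19b and 1.54 in the control. SOCS3, an inhibitor of that signal, was dim at both probes, which read 27.0 and 5.03 with anti-miR-19b and 23.1 and 11.2 in the control, with log2 ratios of 0.22 and -1.15.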
